A study of Mus musculus with 2 samples.

Results

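Of the 2018 Lef1 peaks on mouse chromosomes 1 to 19, 365 had their centre more than 50 kb from the body of every RefSeq protein-coding gene, and these remote peaks are described here. They made up 18.1% of the autosomal peaks (95% exact Clopper-Pearson interval 16.4 to 19.8%), and the other 1653 peaks served for comparison. The members were chosen by position alone. The peaks come from chromatin immunoprecipitation sequencing (ChIP-seq), in which DNA bound by a protein is pulled down with an antibody, here the anti-Lef1 antibody C18A7, and sequenced. The wild-type library was made from splenic conventional CD4+ T cells (TCRb+, CD4+, CD25-) of C57BL/6 mice aged 8-10 weeks. The control library was made with that antibody from TCRb+ CD4+ T cells of CD4-Cre+ Lef1 fl/fl mice on the C57BL/6 strain, in which Cre driven by Cd4 sequences removes the floxed Lef1 gene in T lineage cells. Both are labelled naive CD4 T cells, but only the wild-type cells are labelled CD25-, so cells carrying CD25 and the loss of Lef1 cannot be told apart as sources of a difference. The sources used here give neither the age of the control mice nor the number of mice in either library, and a peak list holds no expression value with which to check the cell type. Each library stands alone and the control has no peak list of its own, so no difference between genotypes could be tested, and a peak is an excess of wild-type over Lef1-deficient reads. The 95% intervals given below for shares and densities cover counting error only, and neighbouring peaks are not independent.

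Lef1 belongs to the TCF/LEF family of high-mobility-group proteins, which bend DNA at short sites related to CTTTGAA or CTTTGAT. They activate target genes together with β-catenin and repress them together with Groucho corepressors of the Tle family. In T cells Lef1 acts beside its relative Tcf1 from the thymus onwards. Regulatory elements of developmental genes often lie far from the gene body, in gene-poor stretches or inside long noncoding RNA (lncRNA) genes, and a remote element need not act on the nearest coding gene. The genes named below are therefore the neighbours of a peak on either side, not its targets.

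Sequence could be read at the 3 remote peaks that overlapped the promoter window of a lncRNA gene in RefSeq (GRCm38.p6, the assembly of mm10, 250 bases before to 50 after a start). These stretches are shown because they are where a remote peak meets an annotated promoter window. The peaks at Gm34507 and Gm41386 contained the annotated start, whereas the peak at D130051D11Rik ended short of it. Each is the part of the window covered by the peak, 5′ to 3′ on the strand of the lncRNA, and capitals mark a match to the TCF/LEF letters CTTTGAA or CTTTGAT on either strand. The lines give Gm34507 (plus strand, chr17:4908248-4908371, within a peak of score 13.63), Gm41386 (minus strand, chr15:93712706-93712867, score 4.99) and D130051D11Rik (plus strand, chr15:85634492-85634577, score 4.25).
Gm34507: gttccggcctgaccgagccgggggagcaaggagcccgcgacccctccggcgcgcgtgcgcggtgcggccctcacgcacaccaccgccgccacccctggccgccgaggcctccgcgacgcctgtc
Gm41386: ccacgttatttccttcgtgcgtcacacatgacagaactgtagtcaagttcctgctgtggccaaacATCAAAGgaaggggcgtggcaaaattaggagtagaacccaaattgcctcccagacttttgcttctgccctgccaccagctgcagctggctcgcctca
D130051D11Rik: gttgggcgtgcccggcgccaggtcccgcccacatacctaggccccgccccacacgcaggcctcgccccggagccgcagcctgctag

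Gm41386 has a second, shifted window that overlaps the same peak, and the values given are those of the window printed. This window held 1 TCF/LEF match, which lay in the peak and read ATCAAAG on the strand shown, and the windows of the other genes held none. The letters occur in 8.65% of the 32851 promoter windows of the same table, all 300 bases long (8.35 to 8.96%). Stretches at Gm34507 and D130051D11Rik were rich in G and C, at 79.8% and 76.7%, against 52.5% at Gm41386. The ETS core GGAA, present in 96.0% of all windows on either strand, occurred 6 times in the window at Gm34507, 3 times in the printed window at Gm41386 (4 in the shifted one) and not at D130051D11Rik. The RUNX core TGTGGT (16.8% of windows) and the AP-1 sites TGACTCA and TGAGTCA (5.20%) occurred in none of the windows. A match is a run of letters and not a shown binding site, and sequence at the other remote peaks was not used here.

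The remote peaks were mostly narrow and of low score. The score is the authors' −log10 p of the peak against the control. Its most common value over the autosomal peaks was 4.40, and 235 of the 365 remote peaks (64.4%, 59.2 to 69.3%) had exactly that score, against 577 of the other 1653 (34.9%, 32.6 to 37.3%). Scores above it were found in 76 remote peaks (20.8%, 16.8 to 25.4%) and 536 other peaks (32.4%, 30.2 to 34.7%). Scores below it were held by 54 remote peaks (14.8%, 11.3 to 18.9%) and 540 others (32.7%, 30.4 to 35.0%). Peaks inside coding genes and peaks outside them but within 50 kb had nearly the same makeup as each other, with 35.4% and 34.1% at the most common score.

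**Figure D1:**
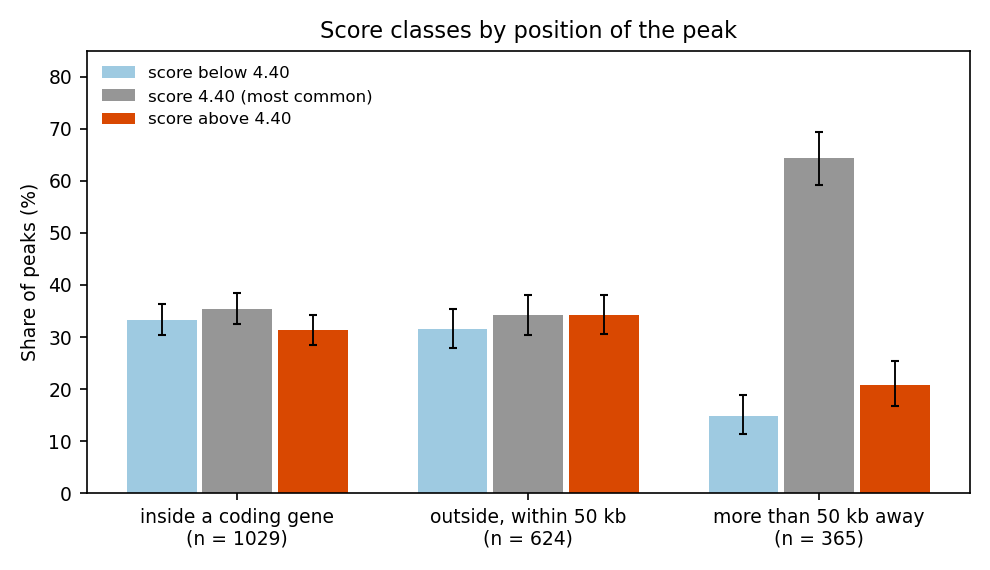
Share of peaks (percent) below, at and above the most common score, for autosomal peaks inside a coding gene, outside within 50 kb, and more than 50 kb away; bars are shares and lines are 95% exact intervals. The remote group stands at 64.4% in the middle class, against 35.4% and 34.1% for the peaks inside and near genes.

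At the upper end the shares of the groups differed by less than the counting error. A score of at least 8 was reached by 19 of them (5.21%, 3.16 to 8.01%), against 4.31% of all autosomal peaks and 68 of the others (4.11%, 3.21 to 5.19%), so the intervals overlapped. A score of at least 6 was reached by 36 (9.86%, 7.0 to 13.4%) and by 11.9% of the others (10.4 to 13.6%). The median remote peak was 71 bp wide (lowest 55 bp, highest 563 bp) and the median other peak 81 bp. Median widths of the remote peaks were 71.5 bp below the most common score, 68 bp at it, 140 bp above it and 255 bp at 8 or more. Just inside the limit of 50 kb lay peaks near Prr16 (50.3 kb, score 4.40), Pkhd1 (50.4 kb, 4.40) and Smndc1 (50.9 kb, 4.17). The one near Pkhd1 had Il17a, the interleukin 17A gene, 62.4 kb away on its other side, a neighbour noticed after the values were seen. Just outside it lay peaks near Ppp2r5a (49.3 kb, 5.09), Trib2 (49.2 kb, 4.40) and Trub1 (49.2 kb, 4.40).

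Peaks at the most common score thinned out less with distance from genes than peaks of higher or lower score. Their density was 0.365 per Mb up to 50 kb outside genes (0.318 to 0.418, exact Poisson), 0.305 at 50 to 100 kb (0.230 to 0.396), 0.261 at 200 to 500 kb (0.203 to 0.330) and 0.217 beyond 1000 kb (0.127 to 0.348). The density of peaks above 4.40 was 0.367 per Mb up to 50 kb (0.319 to 0.419), 0.169 at 50 to 100 kb (0.115 to 0.239), 0.114 at 100 to 200 kb (0.0724 to 0.171), 0.0718 at 200 to 500 kb (0.0432 to 0.112) and 0.0206 at 500 to 1000 kb (0.00424 to 0.0601). From the band up to 50 kb to that of 500 to 1000 kb, density fell by a ratio of 17.8 for scores above 4.40. For the most common score the ratio between these bands was 1.44, from 0.365 to 0.254 per Mb. Peaks below 4.40 also thinned out, though their density was not taken. Of the 623 peaks in 583 Mb up to 50 kb outside genes, 213 scored 4.40, 214 more and the rest less. Of the 44 peaks in 146 Mb at 500 to 1000 kb, 37 scored 4.40, 3 more and the rest less.

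Beyond 1000 kb all 17 peaks had the most common score. A count of 0 higher-scoring peaks in those 78.3 Mb allows a density of up to 0.0471 per Mb, the upper end of the exact Poisson interval. Peaks of at least 8 were few in every band, with 0.0463 per Mb up to 50 kb outside genes (27 peaks), 0.0272 at 50 to 100 kb (5 peaks, 0.00884 to 0.0635), 0.0248 at 100 to 200 kb (5 peaks) and 0.0302 at 200 to 500 kb (8 peaks, 0.0131 to 0.0595). In all remote territory that density was 0.0217 (0.0131 to 0.0339), against 0.0434 inside genes and within 50 kb of them (0.0337 to 0.0550). Only 1 such peak lay further than 500 kb, the one of score 9.32 between Gm6749 and Grm7. Within the remote peaks the median distance to the nearest coding gene was 168 kb, and by class 214 kb for the most common score, 114 kb below it and 113 kb above it.

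**Figure D2:**
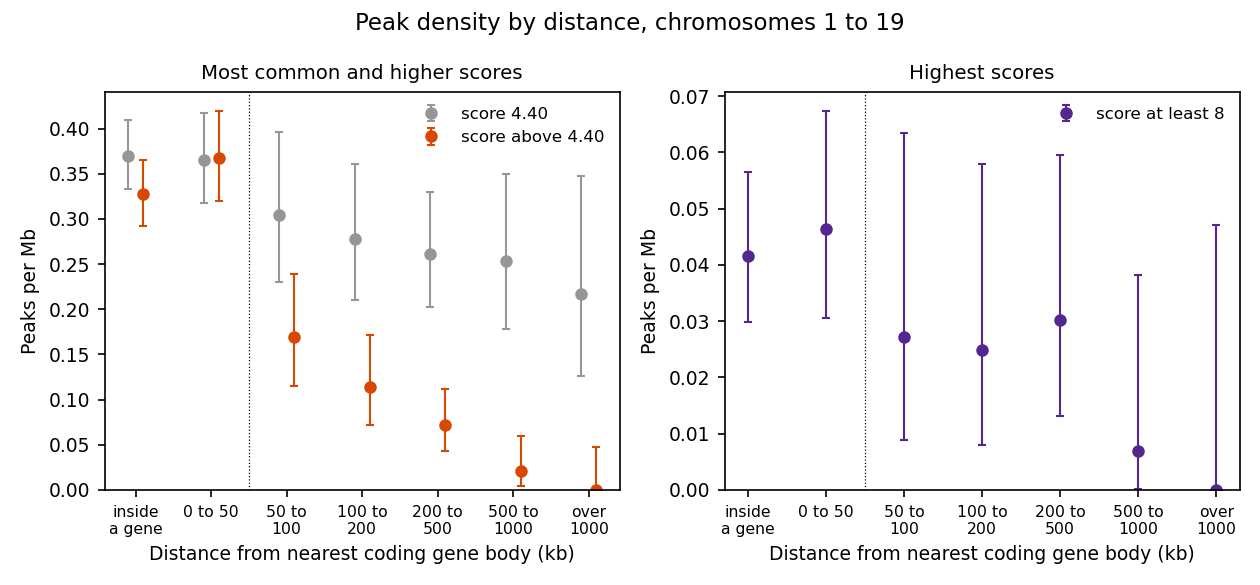
Peaks per Mb of territory (y axis) in bands of distance from the nearest coding gene body (x axis, kb), on chromosomes 1 to 19, for scores of 4.40 and above 4.40 (left) and at least 8 (right). Points are densities, lines are 95% exact Poisson intervals and the dotted line marks 50 kb; the density above 4.40 goes from 0.367 to 0.0206 per Mb between the second and the sixth band while that at 4.40 goes from 0.365 to 0.254.

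The remote territory, all sequence more than 50 kb from a coding body, came to 874 Mb of the annotated spans and held 0.418 peaks per Mb (0.376 to 0.463), against 1.05 in the rest (1.0 to 1.11). By chromosome the remote density ran from 0.230 per Mb on chromosome 11 (8 peaks, 0.0992 to 0.453) to 0.611 on chromosome 9 (21 peaks, 0.379 to 0.935), and these intervals overlapped. Assembly gaps and repeats inside the spans were not removed, so the densities are lower bounds for mappable sequence.

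The strongest remote site had a score of 18.80 (chr4:64497856-64498057, 202 bp). It lay 451 kb upstream of Tnc, which encodes the matrix protein tenascin-C, and 626 kb below Pappa, a metalloproteinase gene, with no other listed peak within 905 kb. The next, of 17.50 (chr10:117947985-117948295), lay inside the lncRNA gene 4933411E08Rik, upstream of both Rap1b, a small GTPase of integrin signalling, at 102 kb and Mdm1, a centriole protein, at 193 kb. A narrower peak of 4.99 lay 0.253 kb from it, centre to centre. The third, of 16.00 (chr15:59913962-59914216), lay 257 kb above Trib1, a pseudokinase gene, and 101 kb downstream of 4933412E24Rik. The fourth, for which part of the sequence is shown above, was the peak of 13.63 at the start of Gm34507. It was 86.0 kb upstream of Arid1b, which encodes a subunit of BAF chromatin remodellers, and 1212 kb upstream of Nox3, an oxidase gene of the inner ear.

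Some of the other high-scoring sites had a transcription factor gene on at least one side, a grouping made after the values were seen. A peak of 11.45 (chr16:95869424-95869776) lay 149 kb downstream of Ets2, an ETS factor gene, and 110 kb from the nearer gene Psmg1, a proteasome assembly factor, inside the lncRNA gene 1600002D24Rik. One of 10.20 (chr10:21235176-21235525) lay between Myb, a factor of progenitors and thymocytes, at 74.4 kb and Hbs1l, a ribosome rescue factor, at 60.6 kb. It was upstream of both genes and inside the lncRNA gene Gm33728. One of 8.43 (chr16:92980127-92980342) lay 154 kb upstream of Runx1, a factor required for blood and T cell development, with Setd4 at 603 kb on the other side. One of 8.90 (chr18:68692115-68692282) had Mc2r, a melanocortin receptor gene, at 263 kb and Tcf4 at 651 kb. Tcf4 encodes an E protein and, despite its symbol, no member of the TCF/LEF family. A peak of 8.26 (chr13:28551421-28551808) lay 397 kb from Sox4, a high-mobility-group factor gene active in lymphocyte development, and 400 kb from Prl5a1, a prolactin family gene.

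Groucho corepressor genes stood beside a pair of these sites. A peak of 11.34 (chr9:61698016-61698223) had Tle3 at 280 kb on one side, which it followed downstream, and the ribosomal protein gene Rplp1 at 215 kb on the other. One of 8.26 (chr19:14821059-14821122, 64 bp wide) lay 223 kb upstream of Tle4 and 1084 kb from Psat1. This pairing was noticed after the values were seen.

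The remaining sites of at least 8 had neighbours of mixed function. A peak of 12.52 (chr12:99084229-99084517) lay between the 3′ ends of Ttc8, a ciliary gene, at 101 kb and Foxn3, a forkhead factor gene, at 106 kb. One of 11.34 (chr8:125337444-125337747) lay between Disc1 at 72.5 kb and Sipa1l2 at 80.5 kb, downstream of both. One of 9.32 (chr6:109505259-109505327) lay 623 kb from the predicted gene Gm6749 and 1140 kb from Grm7, a glutamate receptor gene. One of 8.41 (chr6:44793160-44793226) lay 267 kb upstream of Cntnap2, a neuronal adhesion gene. The list ends with peaks of 8.26 at 218 kb from Rasa1, a Ras regulator, 8.21 between Sv2b and Akap13, and 8.01 at 66.2 kb from Prag1. The 19 sites lay in 19 separate gaps between coding genes. All but 3 were at least 100 bp wide, and the narrow ones were those beside Grm7, Cntnap2 and Tle4, at 69, 67 and 64 bp.

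Below a score of 8 some peaks, picked after their values were seen, also had regulators beside them. Peaks of 7.57 lay 52.6 kb from Foxq1, a forkhead factor gene, and 311 kb upstream of Cblb (chr16:51719673-51719912), an E3 ubiquitin ligase that restrains T cell activation. A peak of 7.003 lay 69.003 kb upstream of Irf2bp2, a corepressor gene. One of 6.84 lay 64.8 kb downstream of Zfp281, a zinc finger factor gene.

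**Figure D3:**
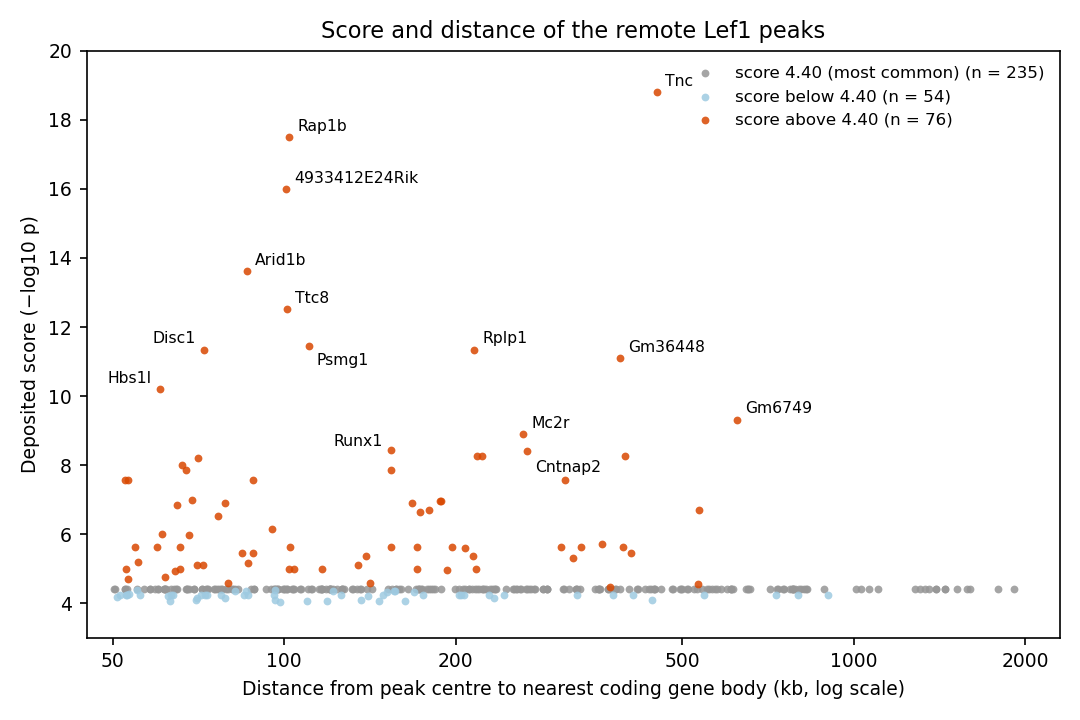
Deposited score (−log10 p) of each of the 365 remote peaks against the distance from its centre to the nearest coding gene body (kb, log scale), coloured by score class; the 14 highest are labelled with that nearest gene. Beyond 1000 kb all 17 points lie at 4.40, and the point of 18.80 lies 451 kb from Tnc.

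The antigen receptor loci accounted for a small group of remote peaks. RefSeq lists V, D, J and C segments apart from protein-coding genes, so these loci count as remote under the rule. Within 1 kb of a segment lay 8 remote peaks and 0 of the other peaks. The gap between Gm36448 and Dad1 on chromosome 14, which holds the T cell receptor alpha V segments, had more remote peaks than any other gap, 5 in all. The peak of 11.09 (chr14:52929471-52929772) lay 0.168 kb from Trav12d-3. Another 3, at 4.40 each, lay 0.211 kb from Trav7d-6 and 0.362 and 0.147 kb from Trav7n-6, and the last, of 4.25, lay inside Trav10. V segments of this locus are near-identical copies, so reads there may map to more than 1 of them and the positions are uncertain. On chromosome 6, peaks of 4.25 and 4.40 lay 0.446 and 0.129 kb from Trbv12-1 of the T cell receptor beta locus. A peak of 4.40 lay inside Ighv1-81 of the immunoglobulin heavy chain locus.

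Remote peaks also gathered upstream of Lef1 itself. In the gap of 380 kb between Rpl34 and Lef1, 4 remote peaks lay 96.3 kb (score 4.09), 163 kb (4.08), 173 kb (6.66, chr3:130937027-130937211) and 209 kb (4.99) upstream of the gene. A further 3 peaks lay within 50 kb of Lef1 or inside it, with a highest score of 7.65. Lef1 is the gene removed in the control cells, whereas these 4 sites lie outside its annotated body.

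At Sox4, 4 remote peaks lay inside the lncRNA gene 2610307P16Rik, which is 425 kb long and lies in the gap of 797 kb to Prl5a1. They lay 229 kb (score 4.25), 397 kb (8.26), 436 kb (5.73) and 487 kb (4.40) from Sox4, and no other listed peak lay in that gap. The gap of 1298 kb from Nox3 to Arid1b held 4 remote peaks, of which that of 13.63 stood above the other 3 (4.35, 4.40 and 4.40). The peak of 4.35 lay 0.194 kb from the strongest one, inside the same lncRNA gene Gm34507. Between Ets2 and Psmg1, peaks of 6.14, 11.45 and 4.58 lay 95.1, 149 and 179 kb downstream of Ets2, and one of 5.12 lay at 28.8 kb. Between Rap1b and Mdm1 another remote peak, of 6.53, lay 219 kb from Rap1b.

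Not every gap with several remote peaks held a high one. Gaps with 3 remote peaks numbered 12, and some held none above 4.40, such as those from Uaca to Tle3 and from Epha7 to Map3k7. Among gaps with 4 or more, only that between the cadherin genes Cdh8 and Cdh11 held none. That gap of 3214 kb also held 4 remote peaks, between 267 and 1694 kb from Cdh8, and each had the most common score and a width of 56 to 68 bp. The 5 peaks furthest from any coding gene had the most common score too. They lay 1911 kb from Pik3c3, 1794 kb from Aga, 1598 kb from G6pd2, 1580 kb from Gpc5 and 1521 kb from Cdh11, and were 60 to 100 bp wide.

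**Figure D4:**
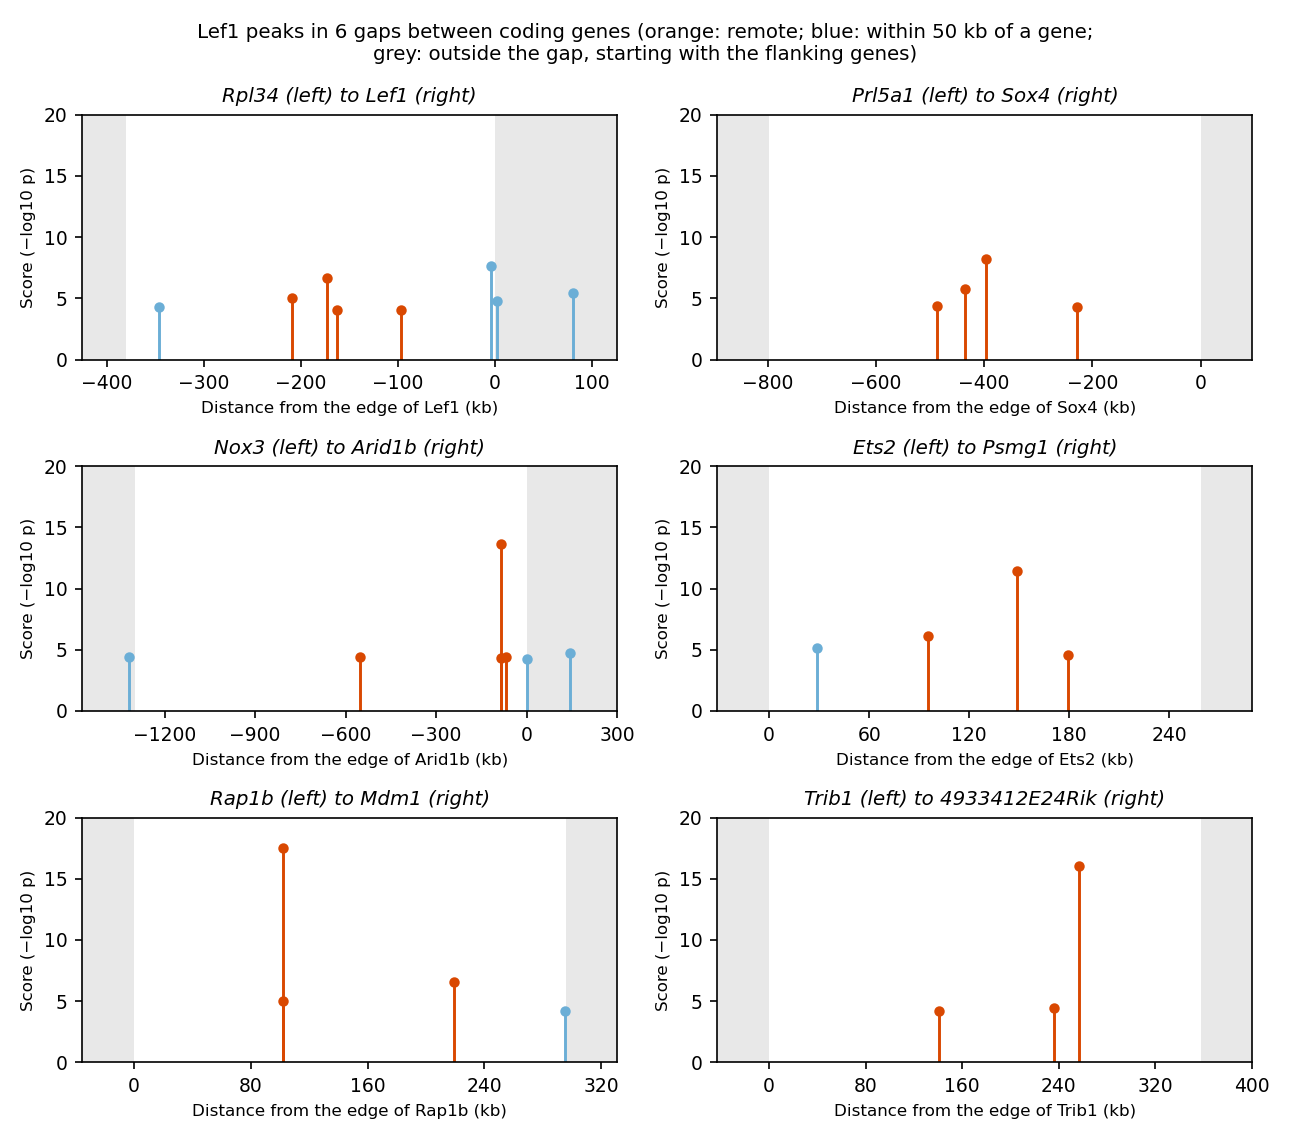
Score (−log10 p) of every listed peak in 6 gaps between coding genes against the distance from the edge of the named gene (kb), with remote peaks in orange, peaks within 50 kb of a coding gene in blue and the flanking genes and what lies beyond in grey. The gaps shown each held 3 or more remote peaks with at least 1 above 4.40, and gaps without such a peak are not shown. In each gap the highest peak has lower ones on the same panel. Near Rap1b 17.50 stands with 6.53 and 4.99, above Trib1 16.00 with 4.40 and 4.23. Near Arid1b 13.63 stands with 4.40 and 4.35, and near Ets2 11.45 with 6.14. Near Sox4 8.26 stands with 5.73, and near Lef1 7.65 with 6.66.

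Remote peaks were scattered over many gaps. They fell in 284 gaps between coding genes, of which 226 held 1 remote peak and 5 held 4 or more. The median gap was 759 kb long, counted once per peak. Another listed peak lay within 10 kb of 24 remote peaks (6.58%, 4.26 to 9.63%) and of 223 other peaks (13.5%, 11.9 to 15.2%). Within 100 kb the shares were 23.6% (19.3 to 28.3%) and 33.5% (31.2 to 35.8%). Peaks were also less dense in remote territory, at 0.418 per Mb against 1.05 in the rest. The part of density in these shares was not tested. No group of 3 or more remote peaks within 10 kb was found, but 12 pairs were. Where the strand of the nearest coding gene was used, 151 remote peaks were upstream of it and 120 downstream (55.7% upstream, 49.6 to 61.7%), and for the other 94 the strand was not used here.

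Long noncoding RNA genes held 58 of the remote peaks (15.9%, 12.3 to 20.1%), whereas lncRNA bodies covered 11.3% of the remote territory. The share was lowest at the most common score. It was 10.6% for peaks at 4.40 (25 of 235, 7.0 to 15.3%), 27.6% above it (21 of 76, 18.0 to 39.1%) and 31.6% at 8 or more (6 of 19, 12.6 to 56.6%). Below 4.40 it was 22.2% (12 of 54, 12 to 35.6%). Each peak was counted, also where 1 lncRNA gene held several. Peaks at 4.40 lay further from coding genes, at a median of 214 kb against 113 kb above it and 114 kb below it. The part of distance in these shares was not tested. Among other peaks outside coding genes, 17.1% lay inside a lncRNA gene (14.3 to 20.3%). No remote peak lay inside a microRNA or another small RNA gene, and 6 lay inside a pseudogene.

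A remote peak of at least 6 lay in 8 lncRNA genes, and 5 of them, 4933411E08Rik, Gm34507, 1600002D24Rik, Gm33728 and 2610307P16Rik, were met above. The others were Gm30821 (8.90, between Mc2r and Tcf4), Pvt1 (6.71) and Gm32663 (6.53, near Mdm1). Pvt1 is a long noncoding RNA gene next to Myc. Its peak (chr15:62169733-62169836) lay 179 kb above Myc, the proto-oncogene and classic Wnt target. Another remote peak, of 4.40, lay 79.7 kb on the other side of Myc.

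A microRNA gene lay within 50 kb of 4 of the 365 remote peaks (1.10%, 0.299 to 2.78%). Among the other 1653 peaks 144 had one that close (8.71%, 7.40 to 10.2%). These shares are not like for like. A microRNA inside a coding gene cannot lie within 50 kb of a remote peak under the rule. The closest microRNA gene was Mir138-1 on chromosome 9. Its hairpin lay 0.226 kb from the centre of a peak of 4.40 (chr9:122682623-122682678). Its mature microRNAs are given because this is the nearest noncoding product of that kind, with the seed (bases 2 to 8) in capitals. Mir206 lay 10.5 kb from another peak of 4.40 and Mir6368 lay 9.49 kb from a peak of 4.25.
mmu-miR-138-5p: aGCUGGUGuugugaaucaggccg
mmu-miR-138-1-3p: cGGCUACUucacaacaccaggg

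The rule already keeps the starts of coding genes more than 50 kb away, so only other annotated starts could be close. No such share was taken for the other peaks. Of the 346 remote peaks outside chromosome 18, which was left out of this count, 7 (2.02%) had a start in the promoter table within 1 kb and 35 (10.1%) within 10 kb.

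As neighbours on either side, 545 coding genes flanked a remote peak, 2.64% of the 20665 autosomal coding genes. The share of list members that did so was higher in each of the 6 gene lists, the list of other lineages included. The lists have 19 to 25 members each, and these shares rest on 2 to 5 genes and carry no intervals. The lists were chosen with earlier results of these data known, so the higher shares are no independent evidence. The lists were not matched on the length of the gaps beside their genes, whose part in these shares was not tested. Flanked by a peak above 4.40 were 129 genes, or 0.624% of all. A flanking gene is the first on its side of the peak and need not be the nearer one.

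Among naive and quiescent T cell genes 4 of 24 flanked a remote peak, and 2 of them, Lef1 and S1pr1, flanked one above 4.40. At S1pr1, a receptor for exit from lymphoid organs, that peak scored 5.16 at 86.7 kb. Btg1, an antiproliferative gene of quiescent cells, had 3 on its upstream side, at 216 kb (4.40) and at 415 kb (a pair at 4.34). Ets1 had 1 at 159 kb (4.40). Of T cell identity genes 5 of 25 flanked one, again with 2 above 4.40. These were Runx1, described above, and Tox, a factor of CD4 lineage development, whose peak of 5.63 was 996 kb away. Car8 lay nearer to that peak, at 154 kb. Gata3 had peaks of 4.25 at 175 kb and of 4.40 at 2329 kb, and Bcl11b one of 4.31 at 152 kb. Ets1 is in both lists.

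Wnt target genes flanked a remote peak in 4 of 20 cases and one above 4.40 in 3. These were Lef1, which is also in the naive list, Myc and Axin2, the scaffold gene of the β-catenin destruction complex. The remote peak beside Axin2 (chr11:109011825-109012009) scored 5.9995, just below 6. It lay 61.1 kb downstream inside the lncRNA gene Gm36876. Axin2 also had 2 peaks within 50 kb. Lgr5, a receptor of Wnt amplification, had a peak of 4.40 at 132 kb, with Tspan8 nearer at 96.9 kb.

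Cytokine and receptor genes flanked remote peaks in 2 of 24 cases. Ifng, the interferon gamma gene, had a peak of 6.95 (chr10:118633452-118633763, 312 bp) 188 kb downstream and one of 4.40 at 267 kb. Tgfbr2, a receptor of TGF-β, had one of 4.08 at 119 kb. Of activation and differentiation factors 4 of 25 flanked one, with Myb (10.20) and Trib1 (16.00) above 4.40. At Maf the peak scored 4.40 at 383 kb, and at Jun 4.25 at 302 kb, with Fggy nearer to the latter at 203 kb. In the list of other lineages 3 of 19 flanked one. Cdh2 (1031 kb), Sox2 (654 kb) and Sox9 (531 kb) each had a peak of 4.40, and none flanked a peak above it. The gene on the other side was nearer for the peaks of Sox2 (Atp11b, 447 kb) and Sox9 (Gm11677, 525 kb).

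Many neighbours of remote peaks had a closer peak as well. Of the 309 genes nearest to a remote peak, 54 (17.5%, 13.4 to 22.2%) were also nearest to a peak within 50 kb, against 7.01% of all autosomal coding genes. The share was 27.5% for remote peaks above 4.40 (19 of 69 genes, 17.5 to 39.6%) and 15% for those at 4.40 (32 of 213, 10.5 to 20.5%). For those below 4.40 it was 21.2% (11 of 52, 11.1 to 34.7%). Lef1 with 3 such peaks, Axin2 and Runx1 with 2 each, and Bcl11b and Ets1 with 1 were among them. Myc, Ifng, Maf and Gata3 were the nearest gene of a remote peak but of no peak within 50 kb. The part of gene length and gap length in these shares was not tested.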

How the data were processed

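ChIP-seq with an anti-Lef1 antibody was available as 1 deposited list of 2052 peaks of the wild-type library, called against the Lef1-deficient control per the labels. Its values are −log10 p per the file headers. Per the submitters' processing notes FastQC, Bowtie2 2.3.4.1, MACS2 2.1.1 and the build mm10 were used; the sources used here give neither the parameters nor the read depth. Starts were raised by 1, assuming the BED convention, so starts may be off by 1 base. Distances ran from the peak centre to gene bodies of a RefSeq table of GRCm38.p6 (20665 autosomal coding genes). Strand came from RefSeq promoter windows, which covered 16457 of these genes. Intervals are exact Clopper-Pearson for shares and exact Poisson for densities (95%). Territory was counted from the first to the last annotated gene of a chromosome. Distances were checked on made-up genes. Named were the 15 remote peaks of highest score (the text gives all 19 of at least 8, since ties at 8.26 cross that limit), the 5 furthest, gaps with 4 or more, list members beside a peak, lncRNA genes holding a peak of at least 6, and peaks next to the 50 kb limit. A few more peaks were named after their values were seen. They lie in these and some other gaps, in the antigen receptor loci, and beside Foxq1, Cblb, Irf2bp2 and Zfp281. The members and lists were chosen with earlier results of these data known. The list member Gata1 had no autosomal entry. No test between groups of peaks was run, since peaks of 1 library are not replicates. Alternatives were other distances, edges, predicted genes, merged peaks, a higher score limit, wider noncoding genes and receptor segments. Analyses used Python 3.11.15, pandas 2.3.3 and SciPy 1.17.1.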

Additional observations from a re-analysis of the deposited data

How the results depend on the processing

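The remote share of 18.1% depends on its limit by construction: it was 12.5% beyond 100 kb and 24.3% beyond 25 kb. Among peaks above the median score it was 12.4%; the cause was not tested. The share of remote peaks inside a noncoding gene, 15.9%, was 21.9% within 5 kb of such a gene and 27.6% among peaks above the median score. The other 10 of 15 alternatives gave values within the interval of the reported share: peak edges, coding genes without predicted entries, merged peaks, pseudogenes counted as noncoding, and, added after the data were seen, receptor segments counted as coding. The share of at least 8 lay between 5.06% and 5.56% in its alternatives. Motif shares in peaks and their alternatives were not run for lack of sequence. No paired analysis was possible because each genotype has 1 library and the list holds no value per library; for the same reason no replicate could be left out. Depth is unknown, and most remote peaks stand near the lowest listed score of 4.01.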

Other observations

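On the sex chromosomes, outside the group described above, 4 of the 15 peaks on X and 15 of the 19 peaks on Y lay more than 50 kb from every coding gene. On X the scores of these peaks ran from 4.25 to 4.40. On Y they ran from 4.40 to 38.17 with a median of 6.91, and 7 were at least 8. The sex of the mice in each library was not used here. On X and Y a difference in sex and the loss of Lef1 therefore cannot be told apart.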
